A study of Mus musculus with 6 samples.

Results

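The genes described here were raised in bone marrow neutrophils of tumor-bearing mice both early and late, to a similar degree. They were chosen by their measured values. A protein-coding gene was kept if its mean level was at least 5 CPM (its counts scaled to the total of the library) in the 1-week and in the 3-week group and at least 1.5 times the naive mean in each. All 4 libraries of tumor-bearing mice also had to lie above both naive libraries, and the means of the 2 weeks had to lie within 1.5-fold of each other. Of 38887 genes in the file, 21213 were annotated as protein-coding and 61 of these met every condition. Genes whose names begin with the symbols of ribosomal, respiratory chain, ATP synthase, histone or proteasome families were left out, which removed 8 (Rpl6, Rpl14, Rpl32, Rpl39, Rplp0, Rps29, Ndufa1 and Cox7c). The 53 genes that remained are the members. One linker histone, H1f0, stayed among them because its symbol does not begin with Hist.

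Cells carrying Ly6G, a surface protein of mouse neutrophils, were taken from the bone marrow with magnetic beads and their total RNA was sequenced in 2 libraries per group. The naive mice carried no tumor. The others had received LL2 cells, a Lewis lung carcinoma line that expressed luciferase, by intravenous injection, and were examined after 1 week or after 3 weeks. The study's methods name C57BL/6N CD45.1+ mice of both sexes and female C57BL/6 CD45.2+ mice, all 6 to 8 weeks old, and do not say which of them gave these libraries. An intravenous injection places tumor cells in the lung without a primary tumor elsewhere, and the line is a single transplanted one. The labels do not say whether a library came from 1 mouse or from several, and with 2 libraries per group an SD describes those libraries only.

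The libraries held 11994158 to 14127919 counts each, and 3 counts corresponded to between 0.212 and 0.25 CPM. Such limits cover counting error only, because reads copied by PCR are not independent molecules. The summed level of 12 neutrophil markers was between 300752 and 321324 CPM in every library, led by S100a8 and S100a9. Ly6g itself, the gene of the protein used for isolation, was near 0, between 0.486 and 2.29 CPM, while the other 11 markers of the list were at 274 CPM or more. For none of 15 marker lists of cell types and maturation stages did the summed level separate all 4 tumor libraries from both naive libraries. Basophil and mast cell markers summed to 72.7 and 75.2 CPM at 1 week against 27.0 and 25.7 CPM in naive mice, and to 6.58 and 12 CPM at 3 weeks. B cell markers summed to between 47.5 and 64.7 CPM in naive and 1-week mice and to 13 and 11.6 CPM at 3 weeks. Ms4a2, Ncr1 and Cldn4 had at most 3 counts in each library. The part of these shifts in the members' levels was not tested. In such bulk samples, fewer cells of a type and less RNA per cell cannot be told apart.

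Neutrophils leave the marrow packed with granule proteins made earlier in development, and they draw most of their energy from glycolysis. Proteins bound for granules, membranes or secretion enter the endoplasmic reticulum, lose their signal peptide there and move on through the Golgi. Ubiquitin and SUMO ligases mark proteins for breakdown or for a change of partners, while mTOR kinase couples nutrient supply to growth and holds back autophagy. Tumors are known to alter marrow granulopoiesis, and the study asked how neutrophils of an early and of an advanced stage differ from those of control mice.

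The 250 bases before the start of 4 genes are printed here as a description. They were picked from the 10 members with the widest gap between tumor and naive libraries as examples of starts with few or many known promoter motifs, and none touches an annotated exon. RefSeq sequences on GRCm38.p6 were used, each written from 5′ to 3′ on the strand of its gene. Fbxo4 lies on the minus strand at chr15:3979574-3979823, Unkl on the plus strand at chr17:25188147-25188396, Mtor on the plus strand at chr4:148448332-148448581 and Nsmce3 on the minus strand at chr7:64873041-64873290. Capitals mark matches to the motifs searched, which are named further on.
Fbxo4: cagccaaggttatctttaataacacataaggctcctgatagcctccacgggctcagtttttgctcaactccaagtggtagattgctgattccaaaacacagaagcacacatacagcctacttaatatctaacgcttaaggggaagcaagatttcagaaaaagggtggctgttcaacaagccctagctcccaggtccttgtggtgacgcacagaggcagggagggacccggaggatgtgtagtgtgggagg
Unkl: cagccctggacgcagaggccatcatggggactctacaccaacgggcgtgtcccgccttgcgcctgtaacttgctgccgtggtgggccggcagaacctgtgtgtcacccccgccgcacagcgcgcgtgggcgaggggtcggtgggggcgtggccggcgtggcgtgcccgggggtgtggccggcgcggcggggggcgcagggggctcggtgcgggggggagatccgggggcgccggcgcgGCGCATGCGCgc
Mtor: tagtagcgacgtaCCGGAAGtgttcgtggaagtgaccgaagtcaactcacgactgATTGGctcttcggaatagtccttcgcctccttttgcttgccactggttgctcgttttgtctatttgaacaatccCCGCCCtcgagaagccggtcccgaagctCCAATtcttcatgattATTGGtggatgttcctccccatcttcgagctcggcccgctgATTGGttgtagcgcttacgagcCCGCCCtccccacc
Nsmce3: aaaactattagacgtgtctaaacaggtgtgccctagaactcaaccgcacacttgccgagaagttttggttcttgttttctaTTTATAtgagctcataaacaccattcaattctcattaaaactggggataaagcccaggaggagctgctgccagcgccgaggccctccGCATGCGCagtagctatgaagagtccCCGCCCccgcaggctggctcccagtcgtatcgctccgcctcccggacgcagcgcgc
The Mtor stretch held 4 CCAAT boxes, 2 GC boxes and an ETS motif, while the Fbxo4 stretch held none of the motifs. In Unkl, 2 overlapping matches to the NRF1 motif formed a run next to the start. Nsmce3 carried 1 such match, a GC box and a TATA box.

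Across the members, the mean at 1 week was between 1.51 and 2.85 times the naive mean, with a median of 1.71. At 3 weeks it was between 1.51 and 3.29 times, with a median of 1.86. For 35 of 53 members the fold, from CPM by library totals, was larger at 3 weeks. At least a doubling was found at 1 week for 11 members, at 3 weeks for 16 and at both for 8. These values chose the members and are given as a description with no test. In the edgeR fit described below, which scales libraries by TMM, the members' median log2 fold change was 0.73 at 1 week and 1.05 at 3 weeks. Between the weeks the median was 0.29, so how alike the weeks look depends on the scaling. The naive mean was under 10 CPM for 38 members, from 10 to under 30 CPM for 9 and 30 CPM or more for 6. The lowest count behind any member in a naive library was 27. Together, the members took 0.0986% and 0.0936% of the counts in naive libraries, 0.211% and 0.149% at 1 week, and 0.201% and 0.213% at 3 weeks.

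**Figure D1:**
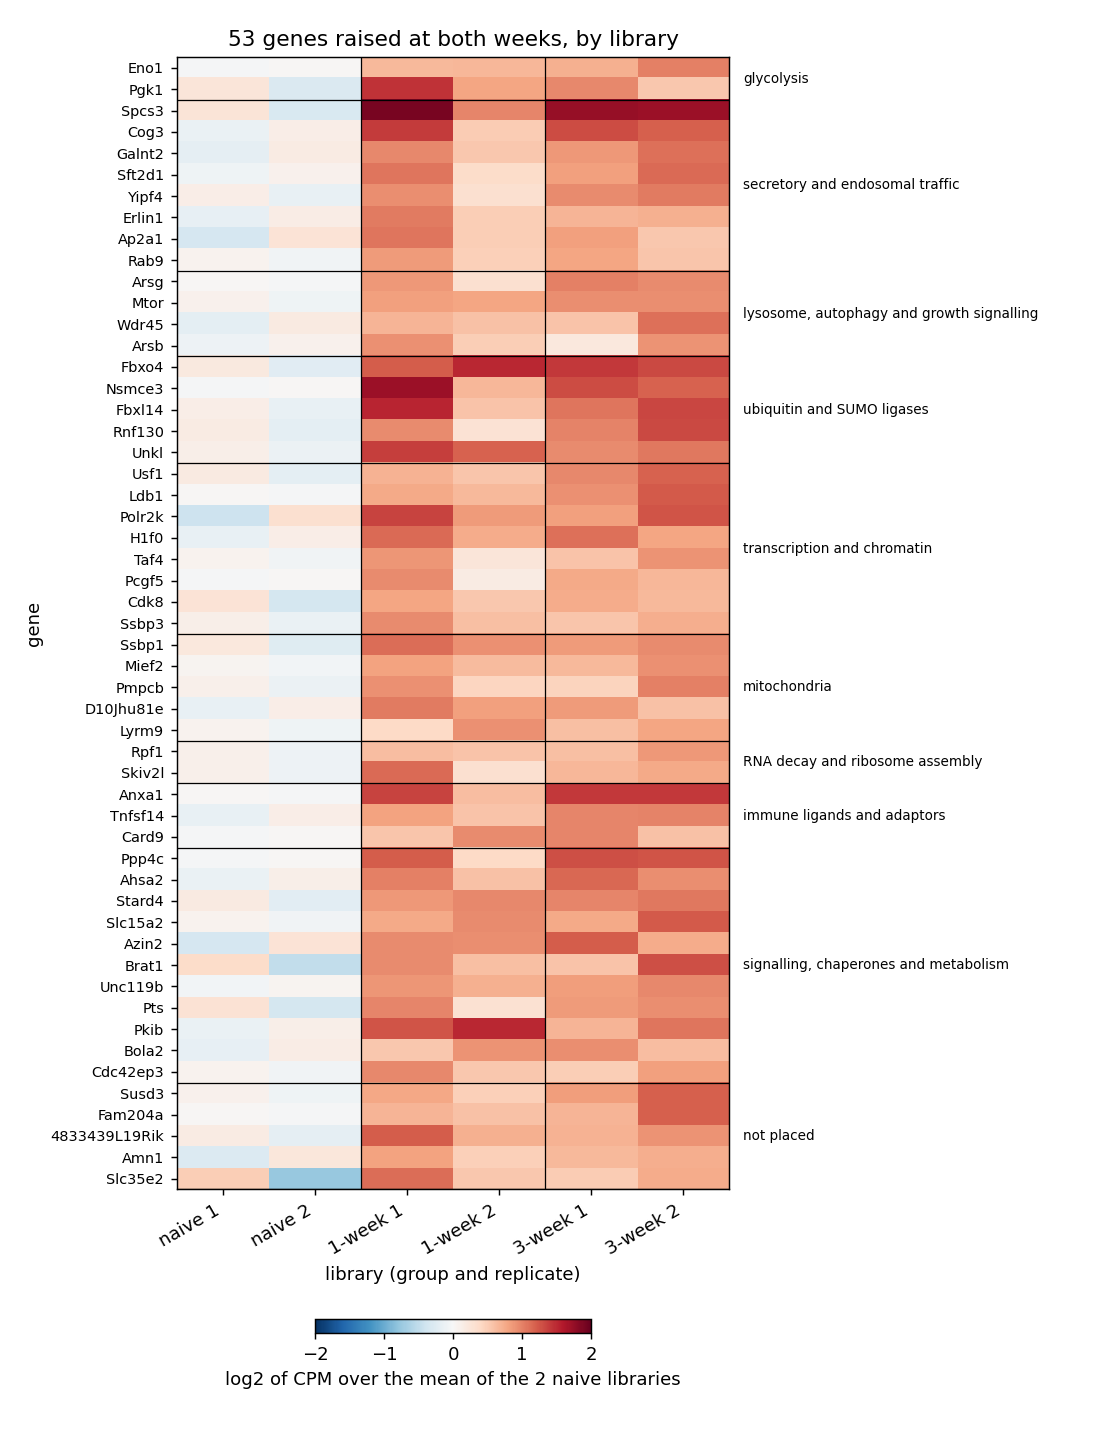
Each row is a member and each column a library; color gives log2 of the CPM over the mean of the 2 naive libraries, and horizontal lines separate groups by known function. The columns of tumor-bearing mice are red in all 53 rows, as the rule requires, and the column of 1-week replicate 1 is darker than that of replicate 2 in 45 of them.

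The libraries of the 1-week group did not sit at the same height. Replicate 1 lay above replicate 2 in 45 of 53 members, 84.9%, with a median ratio of 1.31. Among 10960 protein-coding genes tested the share was 54.9% and the median ratio 1.02. Replicate 2 at 1 week was the lowest of the 4 tumor libraries for 32 members, and replicate 1 was the highest for 23. At 3 weeks, replicate 1 lay above replicate 2 in 19 members, with a median ratio of 0.934. When the rule was applied without 1-week replicate 1, it gave 36 genes, 22 of them members, and without 1-week replicate 2 it gave 86 genes, 48 of them members. Without naive replicate 1 it gave 116 genes, 47 of them members. Under the rule without each library in turn, 14 members were found every time: 4833439L19Rik, D10Jhu81e, Eno1, Fbxo4, H1f0, Ldb1, Mief2, Mtor, Nsmce3, Polr2k, Ssbp1, Stard4, Unc119b and Unkl. All of these but Eno1, 13 members, were also found with both TMM and DESeq2 scaling in the rule. Eno1 and Polr2k fell below the fold limit once counts of near-identical genes were added, as described below.

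Genes with enough counts were also compared across all 12259 of them with edgeR's quasi-likelihood test, at a Benjamini-Hochberg adjusted p under 0.05. Higher levels at 1 week than in naive mice were called for 22 of 53 members, against 4.23% of all genes tested. At 3 weeks against naive they were called for 50 of 53, against 12%. Each of the 22 was also called at 3 weeks, and Ap2a1, Arsb and Slc35e2 were called at neither week. No member was called lower in these comparisons, where 3.76% and 9.42% of all genes were. The rule used the same libraries, so nothing is read from these shares. Without 1-week replicate 1, only Fbxo4, Pkib and Unkl were called at 1 week, and without naive replicate 1, Fbxo4, Pgk1, Pkib, Ssbp1 and Unkl were.

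**Figure D2:**
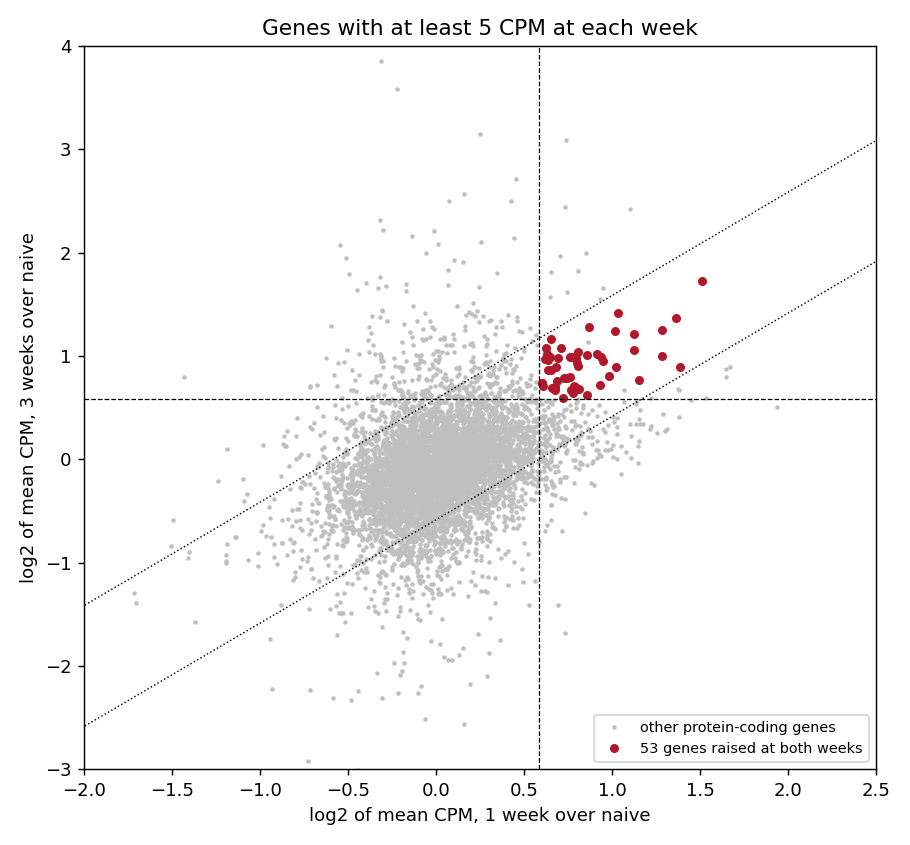
Protein-coding genes with at least 5 CPM at each week are shown, without the families left out by name. The x axis gives log2 of the mean CPM at 1 week over naive and the y axis that at 3 weeks over naive. Dashed lines mark 1.5-fold over naive and dotted lines 1.5-fold between the weeks. The 53 members (red) fill the corner above both dashed lines and between the dotted ones, and 10 of 6542 genes lie outside the range drawn.

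The counts of some members depend on how reads were shared with near-identical genes. Every 75-base window was looked up in the transcripts of all other genes of GENCODE vM21. This is the read length in the labels, while the study's methods speak of up to 50 bases. At least 10% of the windows of 6 members also occurred in another gene, and 4 of these 6 no longer reached 1.5-fold at both weeks once the counts of those genes were added. With 50-base windows, 7 members reached 10%, Usf1 being the one added, and the same 4 fell below the limit. Gm12345, the gene that shares windows with Usf1, was not analysed here, so no sum could be made for Usf1. These checks were added after the values were seen.

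Pgk1, phosphoglycerate kinase of glycolysis, lies on the plus strand of chromosome X from 106187100 to 106203699 on GRCm38. It had 60.5 and 42.2 CPM in naive libraries, 140.0 and 88.8 CPM at 1 week and 100 and 74.4 CPM at 3 weeks. Of its windows, 52.7% occurred in the processed pseudogene Pgk1-rs7, which received more counts than Pgk1 itself in every library, from 2944 to 4860. With Pgk1-rs7 and Gm5537 added, the level was 306 and 319 CPM in naive libraries, 384 and 397 CPM at 1 week and 422 and 422 CPM at 3 weeks. The 3 groups did not overlap in this sum, but the fold stayed under 1.5 at both weeks, at 1.35 at 3 weeks.

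Eno1, the enolase of the same pathway, lies on the plus strand of chromosome 4 from 150236721 to 150248879. Its own level was 122 and 127 CPM in naive libraries, 196 and 197 CPM at 1 week and 203 and 251 CPM at 3 weeks. The processed pseudogene Gm4735 held 16.6% of its windows and had between 893 and 1581 counts, and Eno1b held 22.6% and had none. Summed with both, Eno1 was 1.11 times naive at 1 week and 1.38 times at 3 weeks.

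Polr2k, a small subunit shared by RNA polymerases, had 2.67 and 4.45 CPM in naive libraries, 9.07 and 6.42 CPM at 1 week and 6.30 and 8.52 CPM at 3 weeks. Its pseudogene Gm14567 held 16.8% of its windows and between 292 and 374 counts. The sum of both was 1.14 times naive at 1 week and 1.05 times naive at 3 weeks, where the libraries overlapped with the naive ones. Galnt2, which starts O-linked glycosylation, shares 87.0% of its windows with Gm20388, an annotated gene of the same place and strand. Added together they were 1.3 times naive at 1 week and 1.38 times at 3 weeks. Sft2d1 with Gm12166 added was 1.7 and 2.0 times naive. Wdr45 shares 14.4% of its windows with Gm45208, which was not analysed here, so no sum could be made for it. The other 47 members share under 10% of their 75-base windows with any other gene.

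**Figure D3:**
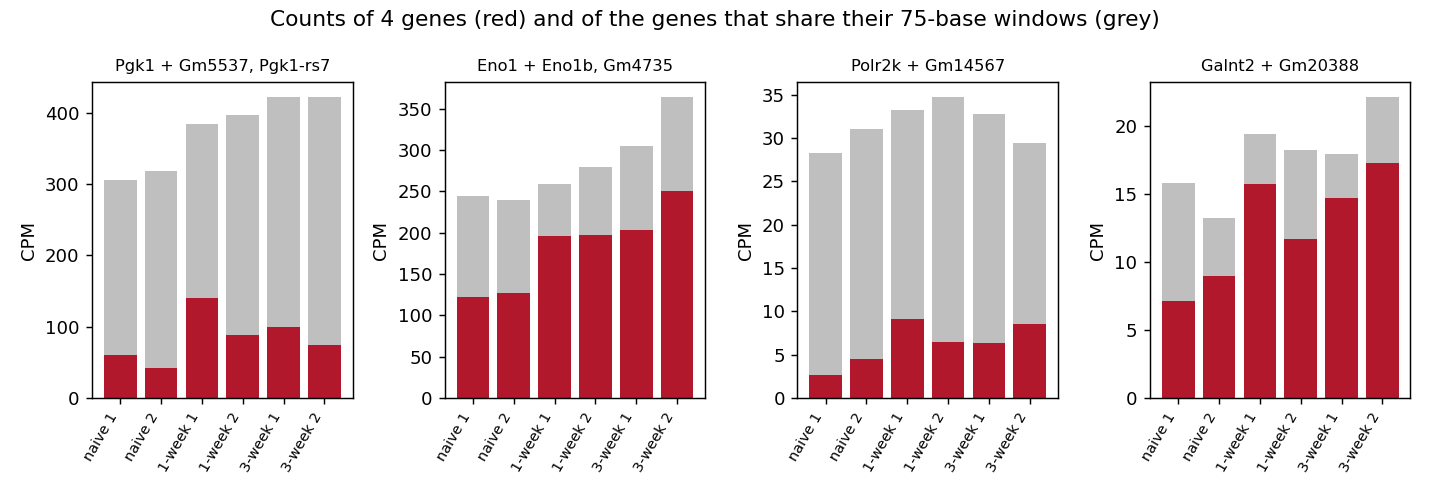
Bars give the CPM of Pgk1, Eno1, Polr2k and Galnt2 in each library (red) and, stacked on it in grey, that of the genes sharing their 75-base windows; each axis starts at 0. The red parts are taller in all tumor libraries, while the full bars differ less between naive and tumor-bearing mice, with Polr2k sums between 28.3 and 34.7 CPM in all 6 libraries.

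Members were placed by hand in groups of known function after they had been chosen, so the groups describe and carry no test. Ubiquitin and SUMO ligases held 5 members, with a median of 2.43 times naive at 1 week and 2.32 times at 3 weeks. Fbxo4, an F-box adaptor of SCF ubiquitin ligases, lies on chromosome 15 from 3965445 to 3979573. It had 4.59 and 3.40 CPM in naive libraries, 9.22 and 11.3 CPM at 1 week and 10.6 and 9.95 CPM at 3 weeks. Its lowest tumor library was 2.01 times its highest naive library, the widest gap of any member. Unkl, a zinc finger and RING domain protein of the Unkempt family, had 7.34 and 6.23 CPM in naive libraries, 17.6 and 15.4 CPM at 1 week and 13.1 and 14.1 CPM at 3 weeks. Its 1-week libraries were its highest. Unkl shares 19.6% of its exonic bases with Gnptg on the other strand, which had 765 counts against 990 for Unkl over all libraries, and without strand information reads of the 2 genes cannot be told apart.

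Nsmce3, a subunit of the SMC complex that carries a SUMO ligase, had 4.17 and 4.29 CPM in naive libraries, 13.9 and 6.73 CPM at 1 week and 10.5 and 9.59 CPM at 3 weeks. The 1-week libraries differed by 2.06-fold, the widest split within that group. Fbxl14, another F-box adaptor, is encoded by 1 exon on chromosome 6 and had 42.7 and 35.2 CPM in naive libraries, 112 and 58.1 CPM at 1 week and 82.2 and 98.6 CPM at 3 weeks. Rnf130, a membrane-bound RING ligase, had 43.2 and 33.6 CPM in naive libraries, 74.0 and 46.8 CPM at 1 week and 76.7 and 95.6 CPM at 3 weeks. Its lower 1-week library was only 1.08 times its higher naive library.

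The secretory and endosomal group held 8 members, from 1.57 to 2.85 times naive at 1 week and from 1.59 to 3.29 times at 3 weeks. Spcs3, a subunit of the signal peptidase that trims proteins entering the endoplasmic reticulum, had the largest fold at both weeks. Its level was 5.25 and 3.56 CPM in naive libraries, 16.4 and 8.69 CPM at 1 week and 14.7 and 14.4 CPM at 3 weeks. The 1-week mean was 12.6 ± 5.48 CPM (SD, n = 2) and the 3-week mean 14.5 ± 0.187 CPM. Cog3 of the Golgi tethering complex went from 4.17 and 5.02 CPM in naive libraries to 12.1 and 6.5 CPM at 1 week and 11.3 and 10.5 CPM at 3 weeks. Yipf4, a Golgi membrane protein, had 14.3 and 11.7 CPM in naive libraries, 24.7 and 16.2 CPM at 1 week and 25.1 and 26.6 CPM at 3 weeks. In all 3 genes, 1-week replicate 2 was the lowest tumor library. The other members here were Sft2d1, Erlin1, Ap2a1 and Rab9, which act in Golgi transport, in membrane domains of the endoplasmic reticulum, in clathrin-coated pits and in traffic from late endosomes, and Galnt2.

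In Mtor, the mTOR kinase, replicates lay close together in each group. The gene lies on chromosome 4 from 148448611 to 148557683 and had 5.92 and 5.26 CPM in naive libraries, 9.86 and 9.63 CPM at 1 week and 10.7 and 10.7 CPM at 3 weeks. This is 1.74 and 1.91 times naive. The lysosomal sulfatases Arsb and Arsg and the autophagy protein Wdr45 completed this group of 4, between 1.51 and 1.96 times naive over both weeks. Arsb stood close to the limit, with 3.5 and 3.97 CPM in naive libraries, 7.07 and 5.24 CPM at 1 week and 4.32 and 6.94 CPM at 3 weeks.

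Transcription and chromatin genes numbered 8 and ranged from 1.51 to 2.18 times naive at 1 week and from 1.56 to 2.11 times at 3 weeks. Ldb1 and Ssbp3 encode proteins that bind each other in LIM-domain complexes. Ldb1 had 9.67 and 9.31 CPM in naive libraries, 16.1 and 14.9 CPM at 1 week and 17.9 and 22.1 CPM at 3 weeks. Ssbp3 had 10.4 and 8.74 CPM, then 18.4 and 14.5 CPM, then 14.0 and 15.9 CPM. As the rule requires of every member, naive and tumor libraries did not overlap in either gene. Of the pair, Ldb1 alone had its higher mean CPM at 3 weeks. In the edgeR fit, Ssbp3 differed little between the weeks, with a log2 fold change of 0.07 for 3 weeks over 1 week. Usf1, a factor that binds E-boxes, had 5.34 and 4.13 CPM in naive libraries, 7.65 and 6.97 CPM at 1 week and 9.20 and 10.7 CPM at 3 weeks. Taf4 of TFIID, Cdk8 of the Mediator kinase module, the polycomb protein Pcgf5 and the linker histone H1f0 were the rest, besides Polr2k.

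Mitochondrial proteins were encoded by 5 members, none of them a subunit of the respiratory chain, whose named families the rule leaves out. Ssbp1, which coats single-stranded mitochondrial DNA, had 8.67 and 6.39 CPM in naive libraries, 16.3 and 14.2 CPM at 1 week and 13.6 and 14.5 CPM at 3 weeks. Pmpcb, the catalytic subunit of the peptidase that trims imported proteins, had 12.1 and 10.4 CPM in naive libraries, 21.1 and 15.1 CPM at 1 week and 15.4 and 22.6 CPM at 3 weeks. D10Jhu81e, also called Gatd3a, had 11.5 and 13.9 CPM, then 26.2 and 22.4 CPM, then 22.9 and 19.1 CPM. The 1-week and 3-week libraries overlapped in all 3. Mief2, which recruits the fission machinery, and Lyrm9 of the LYR motif family were 1.60 to 1.73 times naive.

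Anxa1 was the most abundant member, with 212 CPM per kb of exonic sequence on average over the libraries, against 39.6 for Rnf130 and between 0.439 and 37.5 for the others. It encodes annexin A1, a calcium-dependent phospholipid-binding protein known for limiting neutrophil recruitment. It had 328 and 320 CPM in naive libraries, 828 and 498 CPM at 1 week and 866 and 862 CPM at 3 weeks. The mean was 2.05 times naive at 1 week and 2.67 times at 3 weeks, and 1-week replicate 1 was close to the 3-week libraries while replicate 2 was between them and the naive ones. Tnfsf14, the TNF-family ligand LIGHT, had 17.8 and 21.8 CPM in naive libraries, 34.6 and 29.5 CPM at 1 week and 39.1 and 39.2 CPM at 3 weeks. Card9, the adaptor that passes signals from C-type lectin receptors, was low, with 3.84 and 3.97 CPM, then 5.72 and 7.51 CPM, then 7.72 and 5.87 CPM.

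**Figure D4:**
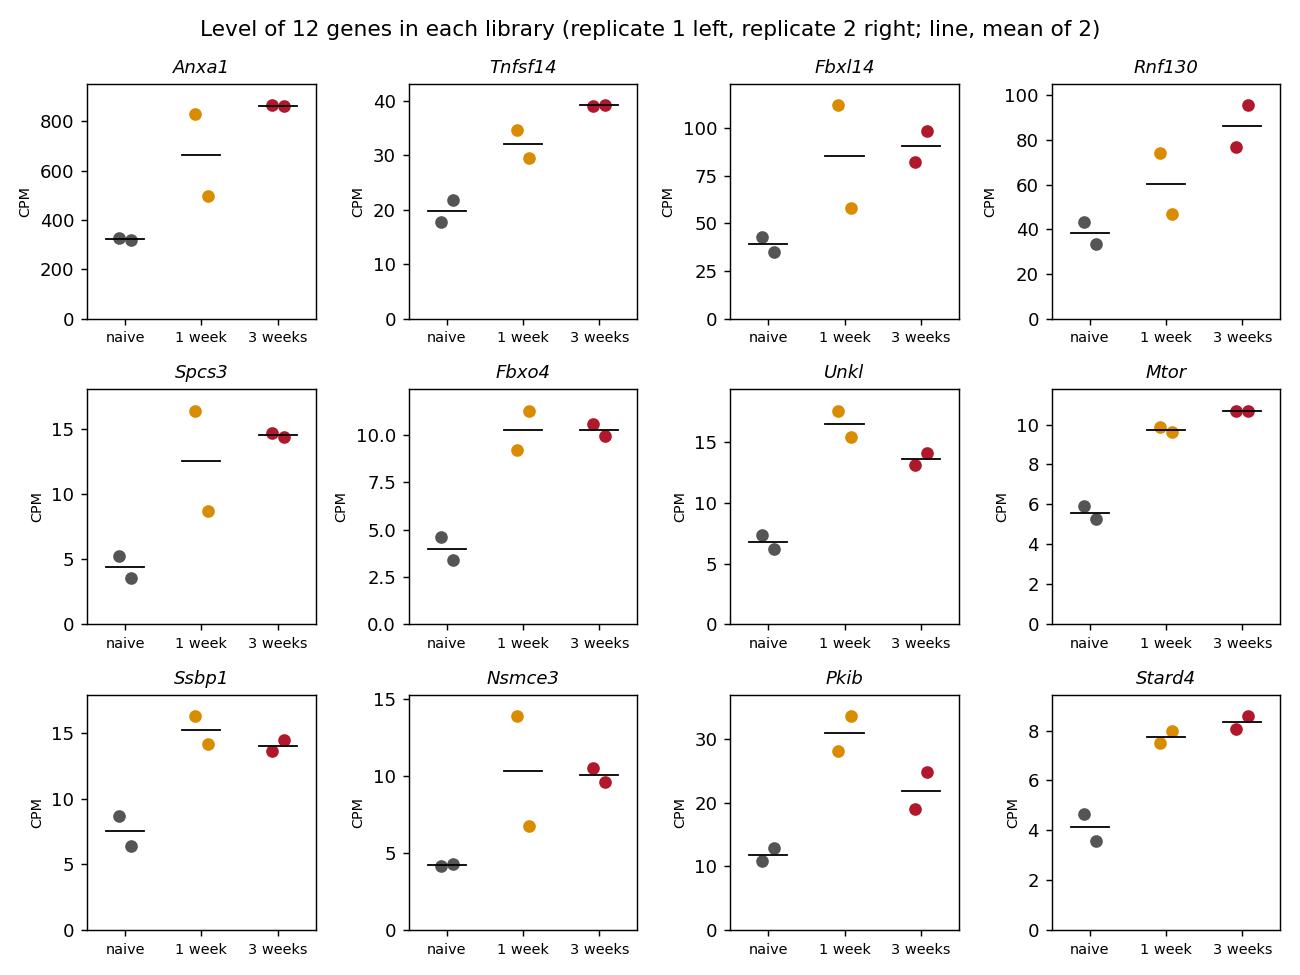
CPM of 12 members in each library, naive in grey, 1 week in orange and 3 weeks in red, with replicate 1 on the left, replicate 2 on the right, a line at the mean of the 2 and axes that start at 0. In Mtor the replicates of each group lie close together, and in Stard4 those of each week do, while in Anxa1, Fbxl14, Spcs3 and Nsmce3 the 1-week points lie far apart.

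Of the signalling and metabolic members, Pkib, an inhibitor of protein kinase A, was highest at 1 week. It had 10.8 and 12.9 CPM in naive libraries, 28.2 and 33.7 CPM at 1 week and 19 and 24.9 CPM at 3 weeks, and its 3-week mean was 0.708 times the 1-week mean. Stard4, a carrier of cholesterol, had 4.67 and 3.56 CPM, then 7.5 and 7.98 CPM, then 8.07 and 8.59 CPM. Unc119b, a chaperone of lipid-modified proteins, had 7.92 and 8.5 CPM, then 15.1 and 13.5 CPM, then 14.6 and 16.0 CPM. Slc15a2, an importer of small peptides, had 2.92 and 2.67 CPM, then 4.72 and 5.40 CPM, then 4.74 and 6.51 CPM. Naive and tumor libraries were apart in these 3, as the rule requires. The weeks, whose ratio the rule had capped, overlapped or nearly met in each. Cdc42ep3, an effector of the small GTPase Cdc42, was more abundant, with 44.4 and 40.1 CPM, then 82.2 and 61.2 CPM, then 59.3 and 74.7 CPM.

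Ppp4c and Bola2 lie 86068 bases apart on chromosome 7, the closest pair of members on any chromosome. Ppp4c, the catalytic subunit of protein phosphatase 4, had 15.7 and 16.3 CPM in naive libraries, 37.2 and 21.1 CPM at 1 week and 38.9 and 38.4 CPM at 3 weeks. Bola2, a partner in iron-sulfur cluster transfer, had 7.09 and 8.82 CPM, then 11.6 and 14.9 CPM, then 15.1 and 12.2 CPM. Their profiles differ at 1 week, where the higher replicate of the former was the lower of the latter. Bola2 shares 8.19% of its exonic bases with Slx1b on the other strand, which had 28543 counts against 933 for Bola2. Ahsa2, an activator of heat shock protein chaperones, shares 47.2% with Usp34, which had 5569 counts against 637. The remaining members of these groups were Azin2, Brat1, Pts, Skiv2l and Rpf1, while 4833439L19Rik, Fam204a, Slc35e2, Amn1 and Susd3 were not placed.

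Values just inside and just outside each limit show how the set was bounded. The smallest folds at 1 week among members were 1.515 for Taf4, 1.515 for Rpf1 and 1.524 for Pcgf5, and Rab3gap2 at 1.484, Slc25a5 at 1.476 and Ccnc at 1.456 missed only this limit. At 3 weeks, Arsb at 1.508, Slc35e2 at 1.539 and Ssbp3 at 1.561 stood inside, and Pex14 at 1.494, Oard1 at 1.489 and Gipc1 at 1.484 outside. For the ratio of the weeks, Rnf130 at 1.427, Pkib at 1.412 and Usf1 at 1.365 were inside, and Guf1 at 1.539, Exoc6 at 1.539 and Clmp at 1.612 outside. The lowest tumor library was 1.002 times the highest naive library for Slc35e2, 1.009 times for Pts and 1.084 times for Rnf130. That ratio was 0.9685 for Cpa6 and 0.9454 for Psenen, the 2 genes that failed only there. The lower of the week means was 5.058 CPM for Slc15a2, 5.416 CPM for Azin2 and 5.499 CPM for Brat1, against 4.99 CPM for Nkg7, 4.63 CPM for Cd209c and 4.543 CPM for Tgds. The number of genes failing a single limit was 79 for the 1-week fold, 80 for the 3-week fold, 18 for the ratio of the weeks and 190 for the level. The same rule turned downwards, with a naive mean of at least 5 CPM, gave 101 genes.

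The direct comparison of the weeks had been capped by the rule at 1.5-fold. Of the 53 members, 9 were called higher at 3 weeks than at 1 week, against 12.9% of all genes tested, and none was called lower, against 9.57% of all genes. Over all genes, 1586 were higher and 1173 lower with TMM scaling, and 856 and 2136 with library totals. At an unadjusted p under 0.05 there were 11 members. The 9 were Anxa1, Eno1, Ldb1, Ppp4c, Rnf130, Susd3, Tnfsf14, Usf1 and Yipf4. With library totals in place of TMM scaling none was called. In that test the 3-week libraries carry TMM factors of 0.9134 and 0.9315 and the 1-week libraries 1.072 and 1.051. With the TMM factors applied in the rule itself, 74 genes met it, 41 of them members. The 12 members lost were Anxa1, Arsg, Fam204a, Pcgf5, Ppp4c, Rnf130, Rpf1, Slc15a2, Susd3, Taf4, Usf1 and Wdr45.

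The lists of related genes give the setting of the members. Of 24 lists, 6 held a member, and only 6 members were in any list. Over all genes tested, 518 were higher and 461 lower at 1 week, and 1471 higher and 1155 lower at 3 weeks. With library totals in place of TMM these were 575 and 263, and 890 and 1675, and when length and GC entered the model as offsets they were 411 and 697 at 1 week. The median log2 fold change of all genes was 0.01 at 1 week and 0.03 at 3 weeks. The adjusted p-values of the named genes outside the members come from the same edgeR fit.

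Of 21 glycolysis genes, 3 were higher and 1 lower at 1 week, with a median log2 fold change of -0.01, and 12 were higher and 1 lower at 3 weeks, with a median of 0.53. The 3 called at 1 week were Pgk1, Eno1 and Hk3, a hexokinase. With the counts of near-identical genes added, Eno1 was only 1.11 times naive at 1 week. Pgk1 summed in this way was 384 and 397 CPM at 1 week against 306 and 319 CPM in naive libraries, under the 1.5-fold limit. These sums were not tested. Slc16a3, a lactate exporter, fell at 1 week, from 572 and 459 CPM to 310 and 316 CPM, a log2 fold change of -0.77 ± 0.116 (SE, adjusted p = 0.00216). Hk2 fell at 3 weeks, from 179 and 190 CPM to 99.9 and 116 CPM, a log2 fold change of -0.63 ± 0.119 (adjusted p = 0.0023).

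Among 45 genes of endoplasmic reticulum targeting, translocation and glycosylation, 2 were higher and 0 lower at 1 week, and 16 were higher and 0 lower at 3 weeks. The medians were 0.11 and 0.34. Besides Spcs3, the gene called at 1 week was Sec61g, a subunit of the translocation channel, with 15.7 and 18.7 CPM in naive libraries, 56.3 and 33.0 CPM at 1 week and 33.7 and 20.8 CPM at 3 weeks. Of the other signal peptidase subunits in the list, Spcs1 and Spcs2 had log2 fold changes of 0.45 and 0.04 at 1 week and 0.63 and 0.45 at 3 weeks, and passed the test at 3 weeks (adjusted p = 0.00381 and 0.0401) but not at 1 week (0.053 and 0.906). The catalytic subunits Sec11a and Sec11c passed at neither week, with log2 fold changes of 0.10 and 0.33 at 1 week and 0.13 and 0.27 at 3 weeks. In the list of vesicle traffic, lysosome and proton pump genes, which holds no member, 2 of 99 were higher and 2 lower at 1 week, and 26 were higher and 2 lower at 3 weeks.

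Of 57 genes of RNA polymerases and general transcription, 1 was higher at 1 week, Polr2k itself, and 1 lower. With the counts of Gm14567 added, Polr2k was only 1.14 times naive at 1 week. At 3 weeks 10 were higher and 2 lower, with a median log2 fold change of 0.16. Sub1 fell at 1 week, from 621 and 654 CPM to 448 and 444 CPM, and rose at 3 weeks to 787 and 688 CPM (adjusted p = 0.0121 and 0.0471), while Polr1a, the large subunit of RNA polymerase I, fell at 3 weeks from 53 and 42.6 CPM to 26.0 and 31.4 CPM (adjusted p = 0.00887). Of 36 mitochondrial import genes, 1 was higher at 1 week and 4 higher and 2 lower at 3 weeks, with medians of 0.21 and 0.07, the latter turning to -0.08 with library totals. Pmpca, the partner of Pmpcb in the peptidase, had log2 fold changes of 0.38 at 1 week (adjusted p = 0.185) and 0.53 at 3 weeks (adjusted p = 0.0355). Those that fell at 3 weeks were Gfer (log2 fold change -1.07, adjusted p = 0.0182) and Tomm34 (-0.48, adjusted p = 0.0376).

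Anxa1 stands in 2 lists. Of 26 S100, stefin and annexin genes, 4 were higher and 2 lower at 1 week, and 14 were higher and 0 lower at 3 weeks, with medians of 0.14, which turned to -0.08 with the offsets, and 0.63. The 2 that fell at 1 week were annexins, Anxa2 from 2738 and 2765 CPM to 1825 and 2160 CPM, and Anxa11 from 2.25 and 1.94 CPM to 0.572 and 0.157 CPM. Anxa11 rests on few counts, and its level in 1-week replicate 2 was below the 0.235 CPM that 3 counts make there. Of 35 granule protein genes, 4 were higher and 1 lower at 1 week, and 11 were higher and 8 lower at 3 weeks, with medians of 0.11, which turned to -0.06 with the offsets, and 0.15. Lyz2 and Orm1 rose at 1 week and fell at 3 weeks, with log2 fold changes of 0.63 and -1.27 for Lyz2 and 0.67 and -1.54 for Orm1. Pglyrp1 rose at both weeks. It is a peptidoglycan-binding granule protein that missed the rule on the ratio of the weeks, with 85.5 and 107 CPM in naive libraries, 336 and 276 CPM at 1 week and 180 and 178 CPM at 3 weeks.

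**Figure D5:**
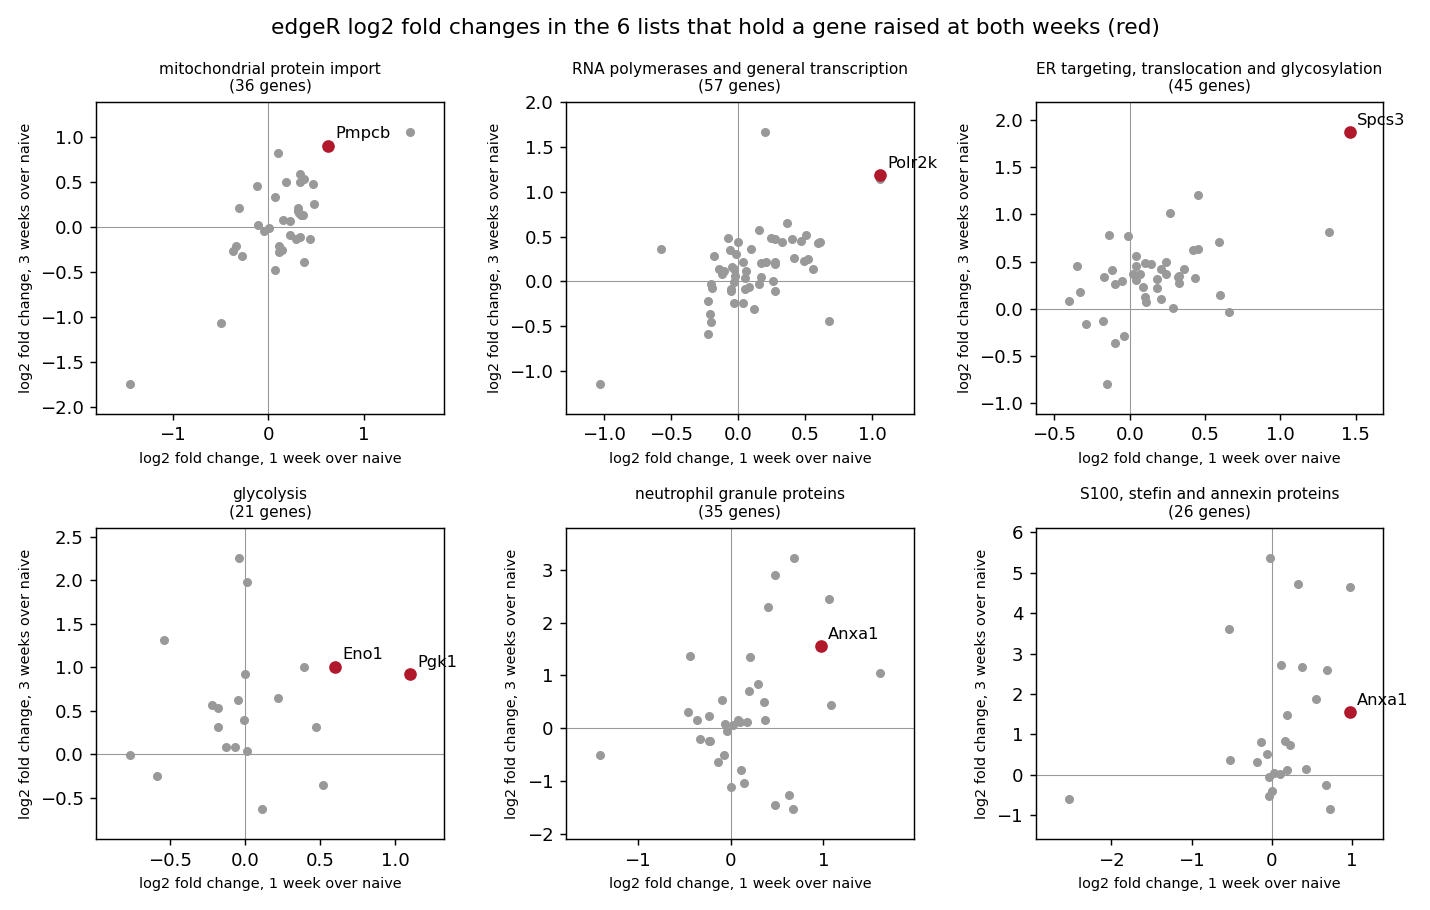
Each panel plots the genes of 1 list by edgeR log2 fold change at 1 week (x axis) and 3 weeks (y axis) over naive, with members in red and the other genes in grey; axes differ between panels. The 6 members lie above 0 on both axes, which the rule had all but fixed, so nothing is read from their position. The median of a list on the x axis is between -0.01 and 0.21.

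Length, base composition and position were not used by the rule. The median length of their longest coding transcript was 2727 bases, with quartiles of 1674 and 3994, against 3135 bases over the 10960 protein-coding genes tested, with quartiles of 1983 and 4644. GC content had a median of 50.5% against 49.9%, and the number of exons a median of 9 in both. The members lay on 19 chromosomes, with 6 on chromosome 17 (11.3% against 5.22% of the genes tested), 5 on chromosome 19 (9.43% against 3.64%), 5 each on 4 and 11, and none on 12.

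A RefSeq promoter entry, from 250 bases before to 50 after the start, was matched for 42 members and for 8713 protein-coding genes tested. Their GC content had a median of 58.7% against 60.7%. Motifs were searched as exact letters on both strands, and a match describes the letters only. The GC box GGGCGG was in 30 member promoters (71.4% against 64.7% of all), the CCAAT box CCAAT in 17 (40.5% against 39.5%) and the ETS motif CCGGAAG in 9 (21.4% against 19.6%). The TATA box TATAAA was in 4 (9.52% against 6.94%) and the NRF1 motif GCATGCGC in 3 (7.14% against 5.67%). The CRE TGACGTCA, the E-box CACGTG, the PU.1 motif GAGGAAGT, the AP-1 motif TGANTCA and the palindrome CTCGCGAG were each in 2 (4.76%), against 3.24%, 10.2%, 3.43%, 4.9% and 2.19% of all. The YY1 motif AAGATGGC was in 1 (2.38% against 5.15%). No member promoter held the UPRE TGACGTGG, the STAT motif TTCCNGGAA, the C/EBP motif TTGCGCAA, the kappaB motif GGGACTTTC or the interferon motif GAAACTGAA, which are in 0.735%, 1.26%, 0.31%, 0.413% and 0.574% of all promoters. The searched letters overlap in part, since CACGTG and TGACGTGG share bases with each other and the CRE.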

How the data were processed

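RNA of Ly6G-positive bone marrow cells was sequenced from naive, 1-week and 3-week LL2 mice, in 2 libraries per group. Per the labels, cells were over 95% pure, libraries were made with a total RNA kit, reads were 75 bp from a single end, and the submitters' processing notes name RSEM 1.2.31, Bowtie2 and DESeq2. The authors deposited expected counts per gene on mm10 (GRCm38) as whole numbers, without scaling between libraries. The study's methods name another RSEM version and reads of up to 50 bp, and a legend speaks of 3 samples per group; the labels were followed. Whether counting used strand is not given in the sources used here.

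CPM was computed by column total for the rule and for every level. Of 38887 identifiers, 37570 matched GENCODE vM21. edgeR 4.0.16 in R 4.3.3 (TMM, filterByExpr, quasi-likelihood test, all 6 libraries in 1 model with group as the only factor) was run on 12259 genes, with Benjamini-Hochberg adjustment over all of them. It was tested on simulated data. DESeq2 1.42.0, other scalings, filters and offsets, other limits of the rule, a replicate block and each library left out were alternatives. Same-numbered libraries did not deviate together, so no block was used. Each p-value sets a difference between group means against the spread between these libraries within their groups.

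The members and lists were chosen with earlier results of these data known. Named genes were the 10 members with the largest ratio of the lowest tumor to the highest naive library, the 10 with most CPM per kb, up to 4 per list, 3 on each side of each limit, and list genes called in the opposite direction. Other genes of the functional groups were named after their values were seen.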

Additional observations from a re-analysis of the deposited data

Results flagged for a closer look

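A difference between the weeks was called by edgeR for 9 members, all higher at 3 weeks. The rule had capped this ratio, so the values are a description. The log2 fold changes of 3 weeks over 1 week were 0.71 for Rnf130, 0.65 for Usf1, 0.61 for Ppp4c, 0.59 for Anxa1, 0.59 for Susd3, 0.57 for Ldb1, 0.54 for Yipf4, 0.49 for Tnfsf14 and 0.41 for Eno1. None of the 9 was called without 1-week replicate 2, the library in which most members were lowest among tumor-bearing mice. Groups of 2 libraries were too small for a check of outlying samples.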

How the results depend on the processing

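The set itself moved with the rule. Against 53 genes, the rule gave 248 with the lower limit tried for the fold and 8 with a fold of at least 2, 144 with a mean of at least 1 CPM and 31 with at least 10 CPM. Leaving out 1 library gave between 36 and 116 genes. Other scalings, a narrower or wider ratio of the weeks, all biotypes, the left-out families and overlapping libraries stayed within 1.5 times. So did counts summed with near-identical copies (49 with 75-base or 50-base windows), a check added after seeing the data. The 49 include Wdr45 and, with 50-base windows, Usf1, for which no sum could be made. For members called higher at 1 week, 22 became 34 with no filter, where 22 were shared, and 7 at an adjusted p under 0.01, and between 3 and 28 with 1 library left out (3 without 1-week replicate 1, 5 without naive replicate 1, 9 without naive replicate 2). By DESeq2 the 22 at 1 week became 16, all of them shared. For 3 weeks, 50 became 43 by DESeq2, and between 32, without naive replicate 1, and 49 with 1 library left out. For 3 weeks against 1 week, 9 became 5 by DESeq2 and 0 both with library totals and at an adjusted p under 0.01, and between 0 and 9 with 1 library left out, 0 without 1-week replicate 2, 5 without 3-week replicate 1 and 1 without 3-week replicate 2. The cause was not tested. The replicate block gave 22, 50 and 9, with the same genes called, although deviations of same-numbered libraries correlated at only 0.0101 to 0.0379. No fold change of the 53 members against naive, or of the 9 between the weeks, reversed under the alternatives to the test. For the members against naive the rule had all but fixed this, because every tumor library had to lie above both naive libraries. The 9 had been picked by the test itself. Nothing is read from either. Among the other named genes, 4 changes that had not passed the test reversed. Sec11a at 3 weeks was -0.017 (log2) with library totals. Slc16a3 at 3 weeks was 0.028 with the offsets, 0.031 with the offsets and the replicate block, and from -0.112 to 0.076 with 1 library left out. Spcs2 at 1 week was -0.008 with the offsets, -0.022 with both and from -0.156 to 0.207 with 1 library left out. Tomm34 at 1 week was from -0.071 to 0.21 with 1 library left out. Library totals shifted the median log2 fold change of all genes to -0.11 at 3 weeks against naive and -0.22 against 1 week. Members near 5 CPM rest on few counts, down to 27 in a naive library.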
